A study of Mus musculus with 3 samples.

Results

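Gata6 Lrig1 junctional zone keratinocytes are the cells of the narrow stretch of mouse hair follicle between the bulge, where the slow-cycling follicle stem cells sit, and the infundibulum, which opens to the skin surface. They were picked out of 3 single-cell RNA libraries of mouse back skin by a rule on detected genes. A cell barcode had to hold at least 500 genes and under 15% mitochondrial counts of unique molecular identifiers (UMIs). Basal keratins Krt5, Krt14 and Krt15 had to reach 0.3% of its UMIs, Ptprc had to be at 0, Krt79 below 2 UMIs and Krt1 plus Krt10 below 0.5% of UMIs. At least 4 of the 6 genes Gata6, Tm4sf1, Igf2bp2, Adgrl2, Lrig1 and Pdk4 had to have a UMI, and fewer than 3 of the 6 bulge genes Krt24, Postn, Lgr5, Cd34, Dkk3 and Sfrp1. The rule took 1261 of 27951 barcodes, of which 24884 passed the quality limits and 17496 were keratinocytes by the keratin, Ptprc and quality limits ("gated keratinocytes"). The 1261 cells were 464 in the 2-week knockout library, 427 in the 3-week knockout library and 370 in the control library.

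Each group was 1 library. The labels do not say how many mice a library held. The 2-week knockout carried K5-Cre-er/Piezo1fl/fl/Tdfl/+ and was sampled at postnatal day 62. The 3-week knockout carried K5-Cre-er/Piezo1fl/fl/Tdfl/fl and was sampled at day 71. The control carried K5-Cre-er/Piezo1fl/+/Tdfl/+ and was sampled at day 62. All were C57BL/6 and had received tamoxifen from day 48 to day 52, so the control shares the Cre, the drug and 1 floxed Piezo1 allele. K5-Cre-er acts in Krt5-expressing epithelium, of which the junctional zone is a part. In the 3-week library the age, the time since tamoxifen and the second Td allele cannot be told apart. With 1 library a group, no p-value or standard error can be given between knockout and control, and intervals on those values cover counting error only.

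The junctional zone and the adjoining isthmus hold stem cells that feed the infundibulum and the sebaceous gland. In mouse skin they are known for Lrig1, a membrane protein that dampens signalling of the epidermal growth factor receptor family. They are also known for Gata6, a zinc finger transcription factor tied to the sebaceous duct lineage, for Plet1 and for the R-spondin receptor Lgr6. Leukocytes enter the follicle near this stretch, and upper follicle keratinocytes are known as a source of chemokines. PIEZO1, the protein that the floxed allele targets, is a cation channel opened by stretch of the membrane.

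Depth differed between libraries. Junctional zone cells had a median of 9199 UMIs and 2591 genes in the 2-week knockout, 10538 UMIs and 2761 genes in the 3-week knockout, and 11265.5 UMIs and 2893 genes in control. Their mitochondrial share had medians of 2.57%, 3.39% and 3.41% in the 2-week knockout, 3-week knockout and control. Libraries shared 17 to 29 barcodes in pairs, none of them a junctional zone cell in both, and Scrublet called 5, 15 and 2 of the junctional zone cells doublets in the 2-week knockout, 3-week knockout and control. These were kept, and leaving them out is among the alternatives. RNA of other cell types was unequal between the libraries. The 6 fibroblast markers summed to 8.94, 394 and 168 CPM (UMIs of a gene scaled to 1e6 UMIs summed over the class) in the 2-week knockout, 3-week knockout and control. A single cell held 41.6% to 73.3% of the UMIs of Dcn. The immune list summed to 39.3, 59.1 and 54.2 CPM and was mostly Cd74. The macrophage gene Lyz2 had 1, 3 and 2 UMIs and the T cell gene Cd3e 17, 9 and 28 UMIs in the 2-week knockout, 3-week knockout and control. In the same libraries muscle or pericyte markers summed to 1.66, 2.93 and 62.1 CPM and Schwann markers to 1.66, 36.3 and 1.51 CPM. At least 3 UMIs were held by 1, 0 and 4 cells for the former and by 0, 5 and 0 cells for the latter. The suprabasal genes Lor, Sbsn and Krtdap summed to 382, 1308 and 274 CPM in the 2-week knockout, 3-week knockout and control. A single cell held 76.2% of the Lor UMIs of the 3-week library, but the 3-week excess was spread over many cells. At least 3 UMIs of these 3 genes were held by 38.6%, 76.6% and 40.8% of the 2-week knockout, 3-week knockout and control junctional zone cells. Among fibroblasts of the same libraries the shares were 2.17%, 46.0% and 3.57%. Gm42418, a gene model that overlaps ribosomal RNA sequence, had 14113, 13299 and 26962 CPM in 2-week knockout, 3-week knockout and control junctional zone cells. The part of these differences in the results below was not tested, except where values without the cells concerned are given.

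Piezo1 itself was low. It had 23.7, 13.9 and 33.3 CPM in 2-week knockout, 3-week knockout and control junctional zone cells, from 114, 71 and 155 UMIs. The ratio to control was 0.712 (0.554 to 0.912) at 2 weeks and 0.416 (0.309 to 0.554) at 3 weeks, with 95% exact conditional intervals. The labels do not name the floxed exons, and 3' tags outside them are still counted after deletion. This level therefore does not check the labels. Fibroblasts, in which K5-Cre-er is not active, also had fewer Piezo1 CPM in both knockout libraries than in control (log2 ratios -0.24 at 2 weeks and -0.60 at 3 weeks).

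The 6 genes that chose the cells are given as a description, since the rule fixed that they would be high. Adgrl2, an adhesion receptor of the latrophilin family, was found in 97.4%, 97.2% and 98.4% of the 2-week knockout, 3-week knockout and control cells, at 392, 393 and 411 CPM, against 85.1, 71.5 and 107 CPM in the bulge cells of the same libraries. Tm4sf1, a small 4-pass membrane protein, was found in 92.2%, 89.2% and 90.3% of the cells, at 614, 472 and 724 CPM in 2-week knockout, 3-week knockout and control. Lrig1 was found in 83.4%, 87.1% and 85.4% of the 2-week knockout, 3-week knockout and control cells at 162, 162 and 144 CPM, against 24.1, 30.4 and 28.6 CPM in bulge cells. Adgrl2, Tm4sf1 and Lrig1 were thus each in at least 83.4% of the selected cells of every library, while the other markers were patchier. They were not particular to these cells. Among gated keratinocytes with at least 2 Krt79 UMIs in the 2-week knockout, Adgrl2 was in 89.5%, Tm4sf1 in 68.6% and Lrig1 in 65.2%. Their levels there were 360, 370 and 132 CPM. Igf2bp2, an mRNA-binding protein, was in 64.7%, 55% and 69.7% of the cells (2-week knockout, 3-week knockout, control), Gata6 in 61%, 71% and 50.5% and Pdk4, a kinase that shuts off pyruvate dehydrogenase, in 56%, 48.5% and 53.2%. Fibroblasts, which should lack Gata6, had a Gata6 UMI in 0 of 92 cells in the 2-week knockout, which allows a share of up to 3.26% at a floor of 3 counts, and in 0.555% and 2.20% of cells in the 3-week knockout and control, at a median of 5739.5, 6462 and 9437 UMIs per fibroblast. Lrig1 is also transcribed by fibroblasts, 32.6%, 25.3% and 32.4% of which held a UMI in the 2-week knockout, 3-week knockout and control.

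Gata6 and Lrig1 were both found in 48.5%, 60.4% and 41.9% of the 2-week knockout, 3-week knockout and control junctional zone cells. Gata6 had 125, 143 and 88.2 CPM in 2-week knockout, 3-week knockout and control junctional zone cells, and 113, 125 and 63.9 CPM in the Krt79 keratinocytes of the same libraries. Krt79 keratinocytes are gated keratinocytes with at least 2 Krt79 UMIs, which take in the infundibulum, the sebaceous duct and sebaceous cells. Pdk4 had 188, 108 and 166 CPM in 2-week knockout, 3-week knockout and control junctional zone cells, against 229, 183 and 276 CPM in Krt79 cells. The border between these classes is the Krt79 limit. Of the cells, 12.3%, 20.8% and 12.2% in the 2-week knockout, 3-week knockout and control held the 1 Krt79 UMI that the rule allows. At the other border, 13.6%, 12.2% and 10.5% of the cells held 2 of the 6 bulge markers in the 2-week knockout, 3-week knockout and control, while 42%, 48% and 52% held none. Postn, the bulge gene that encodes periostin, had 200.3, 101 and 127 CPM in junctional zone cells of the 2-week knockout, 3-week knockout and control, against 1812, 943 and 1394 CPM in bulge cells. Many cells stood close to the marker limit. Just inside it, 263, 257 and 225 cells of the 2-week knockout, 3-week knockout and control held exactly 4 markers, and just outside it 410, 402 and 245 otherwise fitting cells held 3.

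Junctional zone cells made up a smaller share of the gated keratinocytes in both knockout libraries than in control. They were 464 of 8121 keratinocytes at 2 weeks, or 5.71% (95% exact Clopper-Pearson interval 5.22% to 6.24%). At 3 weeks they were 427 of 6345, or 6.73% (6.13% to 7.37%), and in control 370 of 3030, or 12.2% (11.1% to 13.4%). Relative to control, the share was 0.468 times as large at 2 weeks (0.407 to 0.538). At 3 weeks it was 0.551 times as large (0.478 to 0.635). Since the rule needs detected genes, cells were also thinned to 5000 UMIs before the rule was applied, leaving out 1324, 842 and 240 shallower keratinocytes of the 2-week knockout, 3-week knockout and control. This gave 3.63%, 3.42% and 7.08% in the 2-week knockout, 3-week knockout and control. Bulge cells were 3411, 1208 and 754 of the gated keratinocytes of the 2-week knockout, 3-week knockout and control, so their yield weighs on the denominator. Among gated keratinocytes other than bulge, the share of junctional zone cells was 9.85%, 8.31% and 16.3% in the 2-week knockout, 3-week knockout and control. Both knockout libraries stayed below the control library on each of these counts. With 1 library a group, a difference between digestions cannot be told apart from one between genotypes. The distance was shortest for the 3-week library when the keratin limit was set at 1% of UMIs, where the ratio to control was 0.790 (0.621 to 1.01), an interval that includes 1.

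**Figure D1:**
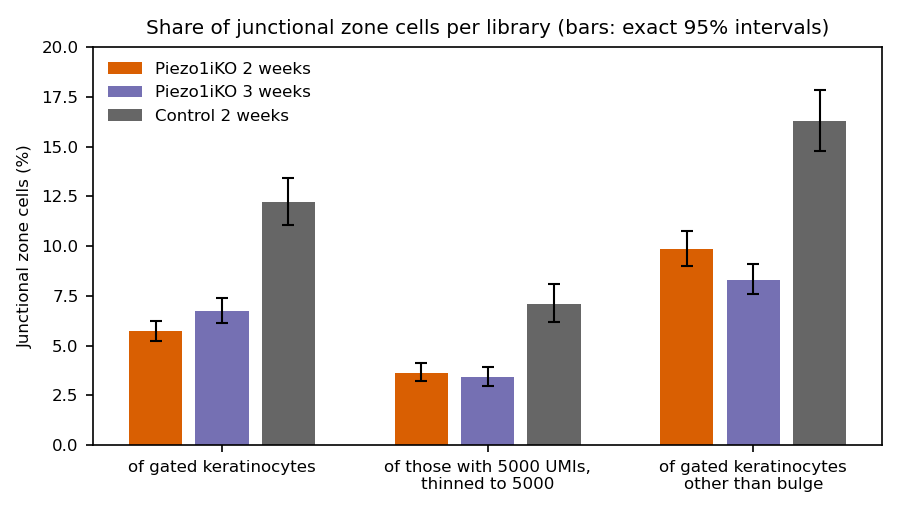
Share of junctional zone cells in percent on the y axis, for the 2-week knockout, 3-week knockout and control libraries, out of all gated keratinocytes, out of gated keratinocytes of at least 5000 UMIs thinned to that depth, and out of gated keratinocytes other than bulge; bars are shares of 1 library each with 95% exact intervals for counting error. In each set both knockout bars lie below the control bar, for example 5.71% and 6.73% against 12.2%.

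The next question was what these cells share that the rule did not use. UMIs were summed per library and class, and junctional zone cells were set against bulge cells (at least 3 of the 6 bulge genes), Krt79 keratinocytes and other basal keratinocytes (0 or 1 of the 6 junctional zone genes), with the library as a block. All p-values below are adjusted by the Benjamini-Hochberg method over 12507 genes in edgeR's quasi-likelihood test. They measure how steady a class difference was over the 3 libraries, which differ in genotype and age and are not replicates of 1 condition. Genes that travel with the rule's markers in the same cells had to differ, so the calls describe the selected cells and are no independent proof of a cell type. At adjusted p below 0.05, 2806 genes were higher (22.4% of those tested) and 2887 lower (23.1%) than in bulge cells. Against Krt79 keratinocytes 1144 were higher (9.15%) and 1308 lower (10.5%). Against other basal keratinocytes 1865 were higher (14.9%) and 1865 lower (14.9%). The median log2 fold change over all genes tested was -0.02 against bulge, 0.02 against Krt79 keratinocytes and -0.0028 against other basal keratinocytes.

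Few genes stood on 1 side of all 3 neighbours at once. Outside the rule, 27 genes (0.216%) were higher by 1.5-fold or more against each class, in the same direction in every library and with 50 CPM or more. Only 6 (0.048%) were lower by as much. Follistatin (Fst), a secreted inhibitor of activins and some bone morphogenetic proteins, was by far the most abundant of them. It had 2311, 1542 and 3294 CPM in 2-week knockout, 3-week knockout and control junctional zone cells, against 1099, 455 and 1815 CPM in bulge cells of the same libraries, 1234, 756 and 1578 CPM in Krt79 keratinocytes and 443, 233 and 543 CPM in other basal keratinocytes. Fst was highest in the junctional zone class within each library. The log2 fold changes were 1.18 ± 0.15 (adjusted p = 0.000118) against bulge, 0.99 ± 0.15 (adjusted p = 0.00144) against Krt79 keratinocytes and 2.51 ± 0.16 (adjusted p = 1.43e-06) against other basal cells. Without the library as a block Fst was at 1.05 (adjusted p = 0.125) against bulge and 1.0 (adjusted p = 0.253) against Krt79 cells, past the threshold against other basal cells alone. Judged by the smallest of the 3 log2 fold changes, Mgp, an extracellular inhibitor of calcification, showed the widest margin of the genes named as higher. It had 49.1, 49.2 and 64.3 CPM in junctional zone cells of the 2-week knockout, 3-week knockout and control, against 5.43, 0.963 and 3.74 CPM in other basal cells. Its log2 fold changes were 1.54 ± 0.34 (adjusted p = 0.00355), 2.09 ± 0.38 (adjusted p = 0.00346) and 4.05 ± 0.39 (adjusted p = 2.37e-05) against bulge, Krt79 and other basal keratinocytes. Mgp and Cxcl12, at 85.1, 115 and 116 CPM in 2-week knockout, 3-week knockout and control junctional zone cells, are also strongly transcribed by dermal fibroblasts. The part of fibroblast RNA in their values was not tested.

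Tns3, which encodes a tensin that ties integrins to actin, had 76.1, 93.9 and 85.8 CPM in 2-week knockout, 3-week knockout and control junctional zone cells, against 43.3, 37.3 and 33.2 CPM in bulge, 33.4, 38.2 and 32.5 CPM in Krt79 and 13.5, 12 and 11.9 CPM in other basal keratinocytes. Its log2 fold changes were 1.13 ± 0.12 (adjusted p = 2.99e-05), 1.29 ± 0.13 (adjusted p = 7.95e-05) and 2.72 ± 0.13 (adjusted p = 1.91e-07) in the same order of classes. The same direction passed the test against all 3 classes for the receptor phosphatase gene Ptpre (log2 fold changes 0.88, 1.39 and 1.94 against bulge, Krt79 and other basal cells), the axon guidance gene Sema5a (1.18, 0.84 and 0.73) and the glypican gene Gpc4 (0.92, 0.69 and 1.48). Vegfa, the angiogenic growth factor, had 107, 79.3 and 90.7 CPM in 2-week knockout, 3-week knockout and control junctional zone cells, against 57.1, 38.7 and 49.5 CPM in bulge cells, with log2 fold changes of 0.91, 0.70 and 1.68 against bulge, Krt79 and other basal cells. Txnrd1, which encodes the cytosolic thioredoxin reductase, had 279, 180.2 and 383 CPM in the same junctional zone cells and 96.8, 69.5 and 176 CPM in bulge cells (1.31, 0.81 and 0.82). The phosphatase gene Ubash3b (1.74, 1.13 and 1.35) and the immediate early nuclear receptor gene Nr4a3 (0.75, 0.94 and 1.32) completed those whose calls held with each library left out. Without the library as a block, Vegfa, Txnrd1, Ubash3b and Nr4a3 lost a call against at least 1 class.

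A further 6 genes met the same criteria but lost a call against at least 1 class when 1 library was left out. Leaving out the control library ended a call for the ectonucleotidase gene Enpp1 (log2 fold change 0.73 against bulge and 0.90 against Krt79 cells), the chemokine gene Cxcl12 (0.56 and 0.94 against the same classes), and the neurotrophin receptor gene Ntrk2 (0.60 against other basal cells). It also ended one for Pclaf, a partner of the replication clamp (0.62 against Krt79 cells and 0.59 against other basal cells), and for the formin gene Diaph3 (0.97 and 0.67 against those classes). With cells thinned to 5000 UMIs, Pclaf was at 0.17, Diaph3 at 0.28 and Ntrk2 at 0.46 against other basal cells, none past the threshold. Without the 3-week library Cxcl12 was at 0.64 against bulge and 0.92 against Krt79 cells, and without the 2-week library Diaph3 was at 0.60 against other basal cells, each no longer past the threshold. The cholesterol synthesis gene Hmgcs1, the sixth, is among the lower genes: it lost its call against all 3 classes without the 3-week library, at -0.75, -0.90 and -0.73 against bulge, Krt79 and other basal cells, and against Krt79 cells without control, at -0.41.

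The genes that were lower than in all 3 neighbours were led by Ctsd, which encodes the lysosomal protease cathepsin D. It had 27.9, 46.8 and 31.2 CPM in 2-week knockout, 3-week knockout and control junctional zone cells, against 90.1, 92.3 and 78.1 CPM in bulge, 137, 216 and 204 CPM in Krt79 and 68.5, 79.3 and 53.7 CPM in other basal keratinocytes. The log2 fold changes were -1.35 ± 0.17 (adjusted p = 8.48e-05) against bulge and -2.41 ± 0.17 (adjusted p = 1.15e-05) against Krt79 cells, and -1.0 (adjusted p = 0.00102) against other basal cells. Lgals3, which encodes galectin 3, had 630.3, 477 and 553 CPM in the junctional zone cells of the 2-week knockout, 3-week knockout and control, the lowest of the 4 classes in each library, against 1537, 1009.8 and 1415 CPM in bulge cells. It was lower by log2 fold changes of -1.28, -0.92 and -1.09 against bulge, Krt79 and other basal cells. Hopx, a small homeodomain protein used as a stem cell marker in several epithelia, was nearly level over the libraries, at 108, 102 and 105 CPM in 2-week knockout, 3-week knockout and control junctional zone cells and 218, 184 and 203 CPM in bulge cells (-0.97, -0.72 and -0.72). The annexin gene Anxa8 (-0.75, -0.63 and -0.68) and Itprid2 (-0.86, -0.63 and -0.65) were lower as well, Itprid2 losing calls against the last 2 classes without the block.

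**Figure D2:**
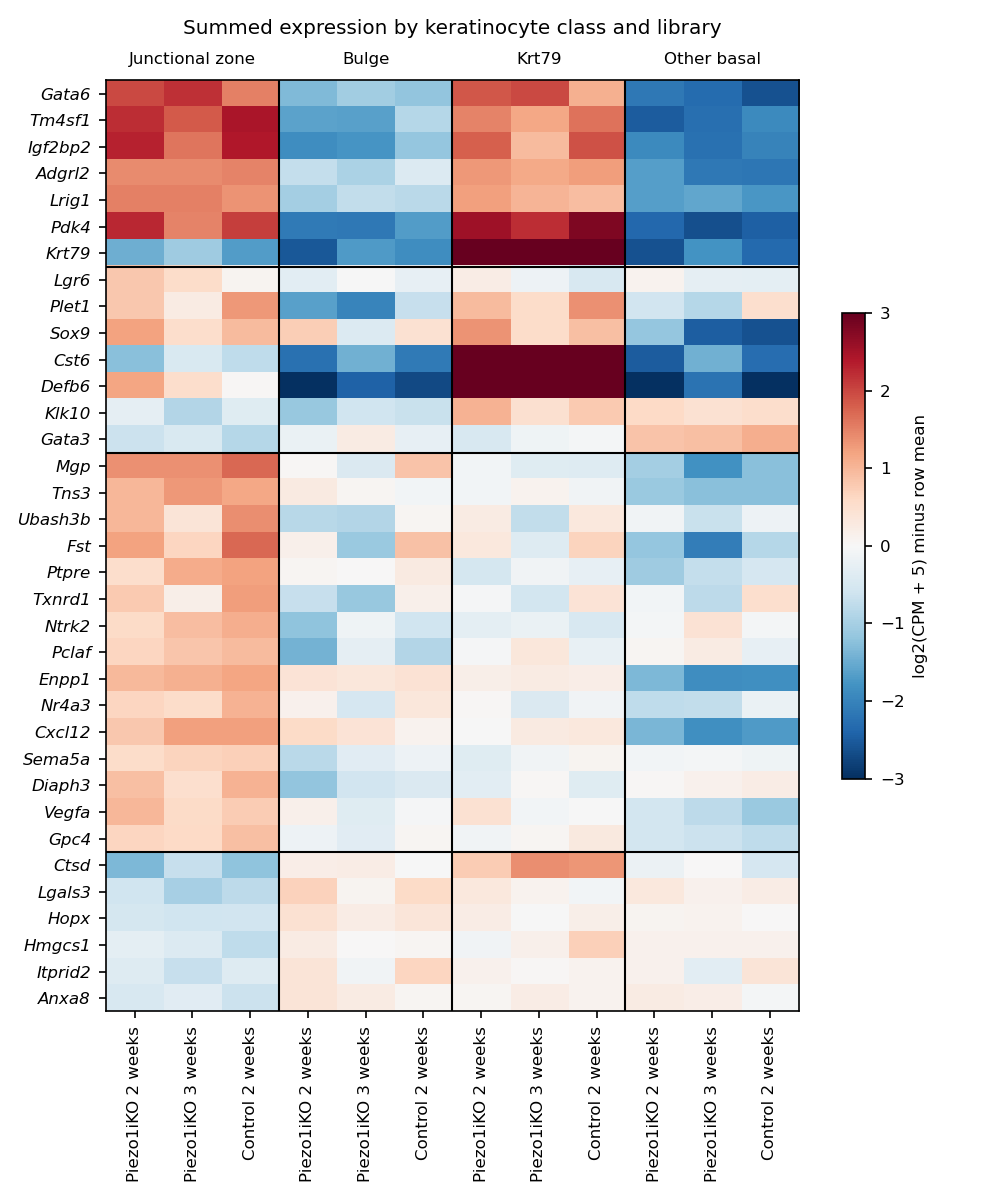
Heat map of log2(CPM + 5) minus the mean of the row, for junctional zone, bulge, Krt79 and other basal keratinocytes (column blocks), each with the 2-week knockout, 3-week knockout and control library; rows are the 6 junctional zone genes of the rule and Krt79, 7 upper follicle genes, and the 15 genes named as higher and 6 as lower. The rule's genes differ by construction; Fst, Mgp and Tns3 are highest in the junctional zone block in each library, and Ctsd, Lgals3 and Hopx lowest.

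By list median, upper follicle genes outside the rule lay above bulge and below the Krt79 class. The rule's limits on bulge genes and Krt79 bear on this order, so it does not place the cells. Single genes did not all follow it: Fst and Lgr6 were higher than in both classes, and Gata3 and Cd200 lower than in both. Of 12 such genes tested, 9 were higher and 2 lower than in bulge (median log2 fold change 1.17), 9 higher and 2 lower than in other basal keratinocytes (median 1.66), and 2 higher but 8 lower than in Krt79 keratinocytes (median -0.84). Plet1, a surface protein of the junctional zone and isthmus, had 1831, 1245 and 2605 CPM in 2-week knockout, 3-week knockout and control junctional zone cells, against 334, 262 and 646 CPM in bulge cells, and did not pass the test against Krt79 cells (2042, 1549 and 2705 CPM, log2 fold change -0.19 ± 0.12 (adjusted p = 0.319)). Lgr6 was 1 of the few to be higher than in all 3 classes, at 74, 60.7 and 42.6 CPM in junctional zone cells of the 2-week knockout, 3-week knockout and control, with log2 fold changes of 0.74 ± 0.15 (adjusted p = 0.00227), 0.68 ± 0.16 (adjusted p = 0.0117) and 0.66 ± 0.15 (adjusted p = 0.00654) against bulge, Krt79 and other basal cells. Sox9, a transcription factor of follicle keratinocytes, had 1127, 711 and 947 CPM in the same cells, higher than in other basal cells by 2.94 ± 0.21 (adjusted p = 2.78e-06) on the log2 scale and did not pass the test against Krt79 cells at -0.04 ± 0.19 (adjusted p = 0.926). The defensin gene Defb6 had 393, 248 and 173 CPM in 2-week knockout, 3-week knockout and control junctional zone cells, against 7995, 6607 and 3434 CPM in Krt79 cells and 16.7, 27.8 and 21.9 CPM in bulge cells. The cysteine protease inhibitor gene Cst6 was at log2 fold changes of -5.75 against Krt79 cells and 1.15 against bulge. Gata3, a relative of Gata6 that is active in the interfollicular epidermis and in the inner root sheath, was lower than in all 3 classes, at -0.65, -0.46 and -1.73 against bulge, Krt79 and other basal cells.

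Most genes of the sebaceous lineage were lower than in Krt79 keratinocytes, but not lower than in bulge or other basal cells. Of 20 tested, none were higher and 17 lower than in Krt79 keratinocytes (median log2 fold change -3.15). Against bulge 3 were higher and 1 lower (median 0.26), and against other basal cells 5 were higher and none lower (median 0.48). Scd1, the desaturase that fills maturing sebocytes, had 15.4, 26.7 and 15.7 CPM in 2-week knockout, 3-week knockout and control junctional zone cells, against 43.7, 658 and 1579 CPM in Krt79 cells, so the Krt79 class holds sebaceous cells mainly in the 3-week knockout and control libraries. Pparg, the nuclear receptor that drives sebocyte maturation, was at 0, 0.195 and 0.86 CPM in the junctional zone cells of the 2-week knockout, 3-week knockout and control, a count of 0 allowing up to 0.624 CPM at 2 weeks at a floor of 3 counts. A gate on a single gene thus mixes canal, duct and gland in the Krt79 class, and the comparison with it reads against that mixture. Genes for retinoid handling were mixed. Stra6, the retinol uptake receptor, was at log2 fold changes of 3.72, -0.95 and 3.84 against bulge, Krt79 and other basal cells, and the retinaldehyde dehydrogenase gene Aldh1a1 at 3.05, 0.20 ± 0.29 (adjusted p = 0.683) and 2.82 against the same classes. Of 10 retinoid genes tested, 4 were higher and 3 lower than in bulge, 1 higher and 3 lower than in Krt79 cells, and 6 higher and 2 lower than in other basal cells.

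Close relatives of the rule's genes differed in both directions. Of 9 tested, 3 were higher and 4 lower than in bulge, 0 higher and 2 lower than in Krt79 cells, and 3 higher and 2 lower than in other basal cells. Adgrl3, another latrophilin, had 53.5, 39.8 and 62.6 CPM in 2-week knockout, 3-week knockout and control junctional zone cells, against 5.57, 2.68 and 2.43 CPM in other basal cells, a log2 fold change of 3.77 ± 0.22 (adjusted p = 8.84e-07). Lrig3, by contrast, was lower than in bulge (-1.16 ± 0.15 (adjusted p = 0.000106)). Of 19 genes of the ErbB ligands, receptors and inhibitors, the pathway on which Lrig1 acts, 5 were higher and 3 lower than in bulge, 6 higher and 5 lower than in Krt79 cells, and 4 higher and 4 lower than in other basal cells. Errfi1, a cytoplasmic inhibitor of the receptors, was higher than in all 3 (0.36, 0.70 and 0.52 against bulge, Krt79 and other basal cells), and the ligand gene Tgfa was higher than in bulge (2.09 ± 0.20 (adjusted p = 1.58e-05)).

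Most Hedgehog genes were lower than in bulge, while the BMP, Wnt and Notch lists were mixed. Of 9 Hedgehog genes tested, 8 were lower and none higher than in bulge (median log2 fold change -1.49), while 4 were higher than in Krt79 cells and 3 higher than in other basal cells. Gas1, a co-receptor for Hedgehog ligands, had 66.1, 80.4 and 43.4 CPM in 2-week knockout, 3-week knockout and control junctional zone cells, against 334, 280.2 and 231 CPM in bulge cells. The transcription factor gene Gli2 was at -3.55 ± 0.19 (adjusted p = 3.05e-07) and the receptor gene Ptch1 at -1.49 ± 0.15 (adjusted p = 2.46e-05) against bulge. Of 29 genes of the BMP and TGF-beta pathways, 6 were higher and 16 lower than in bulge (median -0.77), 8 higher and 1 lower than in Krt79 cells, and 12 higher and 6 lower than in other basal cells. The antagonist gene Grem1 was lower than in bulge (-3.13 ± 0.21 (adjusted p = 1.47e-06)) and the BMP target Id1 likewise (-2.13 ± 0.24 (adjusted p = 4.61e-05)), while the ligand gene Bmp7 was higher (1.65 ± 0.18 (adjusted p = 4.04e-05)). Of 34 Wnt genes, 4 were higher and 15 lower than in bulge (median -0.55), 5 higher and none lower than in Krt79 cells, and 10 higher and 9 lower than in other basal cells. The 4 that were higher than in bulge were all ligands, Wnt4, Wnt6, Wnt10a and Wnt16. Wnt10a, which acts in hair and sebaceous development, had 78.4, 89.4 and 86.2 CPM in 2-week knockout, 3-week knockout and control junctional zone cells, against 27.2, 52.9 and 39.3 CPM in bulge and 40.6, 39.7 and 38.2 CPM in Krt79 cells. Of 12 Notch genes, 3 were higher and 5 lower than in bulge, 3 higher and 2 lower than in Krt79 cells, and 1 higher and 2 lower than in other basal cells.

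Of 14 regulators of follicle stem cells, 2 were higher and 8 lower than in bulge (median log2 fold change -0.86), 3 higher and 1 lower than in Krt79 cells, and 9 higher and 5 lower than in other basal cells. The bulge transcription factor gene Lhx2 had 21.2, 10.9 and 7.74 CPM in 2-week knockout, 3-week knockout and control junctional zone cells, against 301, 271 and 192 CPM in bulge cells (-4.39 ± 0.20 (adjusted p = 8.79e-08)), and Tbx1 was at -5.05 ± 0.22 (adjusted p = 5.33e-08). Runx1 and Foxc1, both active in follicle stem and progenitor cells, were higher than in other basal cells at 1.96 and 3.00. Clock and glucocorticoid-responsive genes were lower than in bulge in 14 of 17 tested and higher in none (median -1.15), against 3 higher than in Krt79 cells, and 3 higher and 4 lower than in other basal cells. Dbp, a transcriptional output of the clock, had 6.24, 9.96 and 2.15 CPM in 2-week knockout, 3-week knockout and control junctional zone cells, against 102, 64.7 and 30.3 CPM in bulge cells. The cation channel gene Trpv4 was far lower than in bulge, at 0.832, 0.39 and 0.86 CPM in junctional zone cells of the 2-week knockout, 3-week knockout and control and 46.2, 30.4 and 29.5 CPM in bulge cells (-5.69 ± 0.33 (adjusted p = 4.36e-07)). Of the 19 cation channel and calcium genes, which include Piezo1, 4 were higher and 8 lower than in bulge, 1 higher and 2 lower than in Krt79 cells, and 1 higher and 5 lower than in other basal cells.

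Most cell cycle genes were higher than in bulge. Of 17 tested, 13 were higher and 2 lower than in bulge (median log2 fold change 1.24), 12 higher and none lower than in Krt79 cells (median 0.75), and 5 higher and 1 lower than in other basal cells (median 0.03). The cyclin gene Ccnd2 had 546, 596 and 532 CPM in 2-week knockout, 3-week knockout and control junctional zone cells, with 1.56 ± 0.12 (adjusted p = 3.72e-06), 0.68 ± 0.12 (adjusted p = 0.00305) and 0.41 ± 0.12 (adjusted p = 0.0219) against bulge, Krt79 and other basal cells. Mki67, which marks dividing cells, had 129, 142 and 182 CPM in the same cells and was higher than in bulge (1.54 ± 0.21 (adjusted p = 0.00016)) but not past the threshold against other basal cells (0.26 ± 0.20 (adjusted p = 0.375)). Cells with a UMI of Mki67 or Top2a were 22%, 27% and 26% of the 2-week knockout, 3-week knockout and control junctional zone cells, and 16.6%, 21.5% and 18% after thinning to 5000 UMIs. Bulge cells stood at 4.81%, 7.62% and 5.84% in the same libraries, and at 3.72%, 7.57% and 4.45% after thinning. The part of cell size in passing a rule on detected genes was not tested. The share among other basal cells was 16.9%, 19.3% and 19.7% in the 2-week knockout, 3-week knockout and control. After thinning it was 14.5%, 15.4% and 15% in the same libraries.

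By list median, genes that fix keratinocytes to the basement membrane were lower than in bulge and other basal cells and higher than in Krt79 cells. Single genes did not all follow this order. Of 24 integrin and basement membrane genes, 1 was higher and 13 lower than in bulge (median log2 fold change -0.66), 15 higher and 1 lower than in Krt79 cells (median 0.89), and 1 higher and 14 lower than in other basal cells (median -0.45). Col17a1, the transmembrane collagen of hemidesmosomes, had 695, 795 and 838 CPM in 2-week knockout, 3-week knockout and control junctional zone cells and log2 fold changes of -1.12 ± 0.08 (adjusted p = 2.24e-06), 1.01 ± 0.08 (adjusted p = 2.32e-05) and -0.80 ± 0.08 (adjusted p = 3.13e-05) against bulge, Krt79 and other basal cells. Itgb8 was the exception among the integrins, at 37.2, 40 and 35 CPM in junctional zone cells of the 2-week knockout, 3-week knockout and control against 5.24, 2.46 and 2.9 CPM in other basal cells (3.35 ± 0.24 (adjusted p = 2.78e-06)). It encodes a subunit of the integrin that frees TGF-beta from its latent form. Npnt and Egfl6, matrix genes by which the bulge attaches the arrector pili muscle and nerve endings, were lower than in bulge at -2.36 and -3.14. Of 20 cell junction genes, 10 were higher and 5 lower than in bulge, 3 higher and 5 lower than in Krt79 cells, and 3 higher and 7 lower than in other basal cells. Of 17 cytoskeletal genes and YAP targets, 4 were higher and 7 lower than in bulge, 5 higher and none lower than in Krt79 cells, and 3 higher and 7 lower than in other basal cells. Among 10 keratins outside the rule, Krt17 had 1655, 1279.8 and 1565 CPM in junctional zone cells of the 2-week knockout, 3-week knockout and control and was higher than in bulge (0.79 ± 0.14 (adjusted p = 0.000886)) and other basal cells (0.55 ± 0.14 (adjusted p = 0.012)) but lower than in Krt79 cells (-0.46 ± 0.14 (adjusted p = 0.041)).

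Most interferon-response genes and fewer of the chemokine genes were higher than in bulge. Of 17 interferon-response genes, 13 were higher and none lower than in bulge (median log2 fold change 0.89), none passed the test in either direction against Krt79 cells, and 3 were higher than in other basal cells. The antigen presentation genes B2m, H2-K1 and H2-D1 were among the 13, B2m at 1.43 ± 0.10 (adjusted p = 2.38e-06) and H2-K1 at 1.20 ± 0.12 (adjusted p = 1.6e-05). Of 18 chemokine and cytokine genes of the follicle, 8 were higher and 2 lower than in bulge (median 0.70), 4 higher and 1 lower than in Krt79 cells, and 6 higher and 7 lower than in other basal cells. Ccl2, which draws monocytes, had 152, 148 and 274 CPM in 2-week knockout, 3-week knockout and control junctional zone cells, against 25.9, 33.4 and 38.4 CPM in bulge, 131, 83.2 and 170.3 CPM in Krt79 and 8.67, 8.24 and 10.2 CPM in other basal cells. Its log2 fold changes were 2.49 ± 0.16 (adjusted p = 1.11e-06), 0.56 ± 0.16 (adjusted p = 0.0261) and 4.27 ± 0.18 (adjusted p = 9.38e-08), and a single cell held 7.01% to 12% of its UMIs in each library. Ccl27a, a chemokine for skin-homing T cells, was abundant, at 1878, 2191 and 1626 CPM in the 2-week knockout, 3-week knockout and control, and higher than in all 3 classes (1.71, 0.39 and 0.92 against bulge, Krt79 and other basal cells). Il7, a survival factor for lymphocytes, was higher than in bulge at 3.55 ± 0.42 (adjusted p = 5.86e-05), whereas Cxcl14 was lower than in bulge at -2.94 ± 0.17 (adjusted p = 4.23e-07). Of 19 immediate early genes, 1 was higher and 13 lower than in bulge (median -0.82), 2 higher and 1 lower than in Krt79 cells, and 4 higher and 2 lower than in other basal cells. Such genes can be induced during tissue digestion, which the classes of a library share.

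Of 18 glycolysis and hypoxia genes, 4 were higher and 7 lower than in bulge, 3 higher and 1 lower than in Krt79 cells, and 2 higher and 11 lower than in other basal cells (median log2 fold change -0.56). The 2 that were higher than in other basal cells were Hk2, a hexokinase, and Vegfa. Of 16 genes of the PPAR pathway and fatty acid oxidation, of which the rule's Pdk4 is a known target, 6 were higher and 2 lower than in bulge, none higher and 7 lower than in Krt79 cells, and 4 higher and 1 lower than in other basal cells. Of 12 p53 targets, 2 were higher and 3 lower than in bulge, none higher and 2 lower than in Krt79 cells, and 1 higher and 6 lower than in other basal cells.

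**Figure D3:**
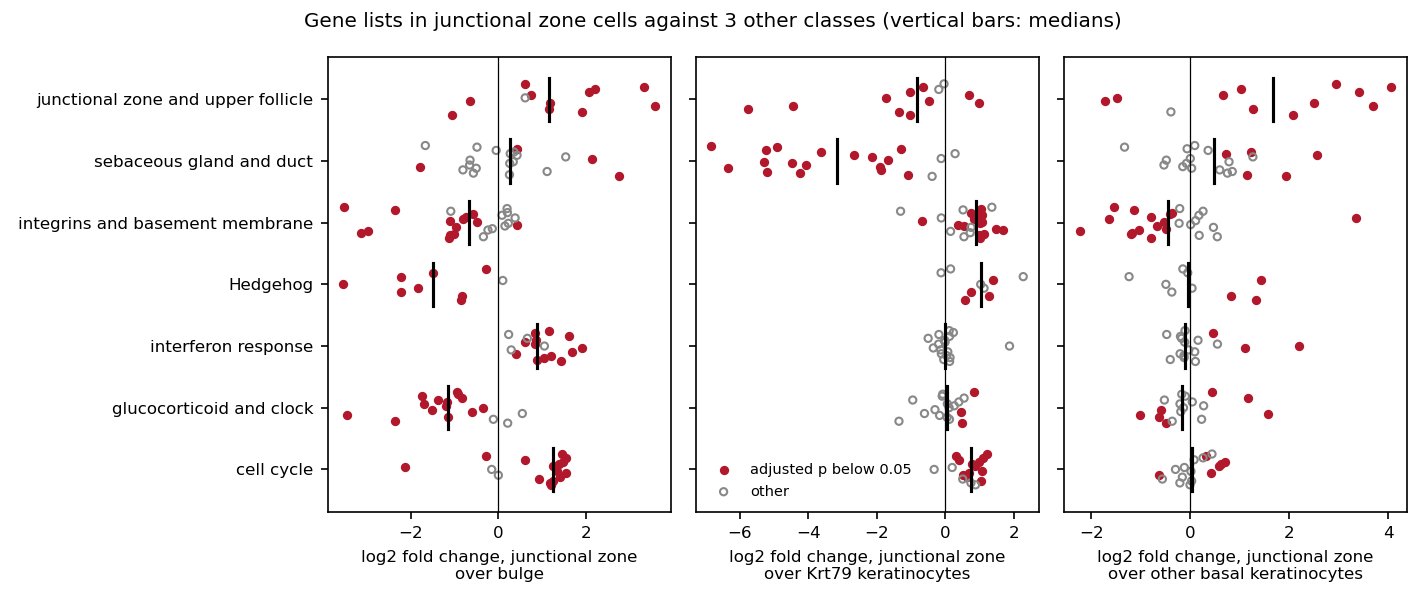
Log2 fold change of junctional zone cells against bulge, Krt79 and other basal keratinocytes (3 panels, x axis) for the genes of 7 lists (rows); each point is 1 gene, red where the adjusted p of edgeR's quasi-likelihood test is below 0.05, and bars are list medians. Sebaceous genes lie left of 0 against Krt79 keratinocytes (median -3.15), and Hedgehog and clock genes lie left of 0 against bulge (medians -1.49 and -1.15).

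The study's own question was the effect of Piezo1 loss in the epithelium. Within junctional zone cells this is a comparison of 1 knockout library with 1 control library at each time, and both times use the same control library, so the 2 sets of ratios share its errors. Genes were ranked where they had at least 50 UMIs over the pair and 50 CPM in 1 of them, and the rule's genes were left out. At 2 weeks 2920 genes were ranked, of which 21 (0.719%) stood 2-fold or more above control and 15 (0.514%) 2-fold or more below it. The median log2 ratio was -0.06. At 3 weeks 2963 were ranked, of which 38 (1.28%) stood 2-fold or more above control and 66 (2.23%) 2-fold or more below it. The median was -0.12. Ratios below are CPM in knockout over CPM in control with 95% exact conditional intervals for counting error, and carry no test.

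On the higher side at 2 weeks 12 genes were named, the most that the naming rule allows on a side. Hes1, a transcriptional repressor and Notch target, had 182, 163 and 46 CPM in 2-week knockout, 3-week knockout and control junctional zone cells. Its ratio to control was 3.96 (3.4 to 4.61) at 2 weeks and 3.55 (3.05 to 4.15) at 3 weeks. Id1, an inhibitor of basic helix-loop-helix factors and a BMP target, had 456, 434 and 143 CPM in the same libraries, with ratios of 3.19 (2.92 to 3.48) and 3.03 (2.77 to 3.31) at 2 and 3 weeks. For both genes the 2 knockout libraries lay close together and the control library apart. Fos, a component of the AP-1 factor, had 4362, 3360.1 and 1454 CPM in 2-week knockout, 3-week knockout and control (3 (2.92 to 3.08) at 2 weeks and 2.31 (2.25 to 2.38) at 3 weeks). Klf2, a shear-responsive transcription factor in endothelium, had 201, 147 and 81.3 CPM, with ratios of 2.47 (2.19 to 2.79) and 1.81 (1.6 to 2.05) at 2 and 3 weeks. Atf3 (2.33 at 2 weeks), a stress-induced factor, Socs3 (2.23), a feedback inhibitor of cytokine receptors, and Irf1 (2.2), an interferon regulatory factor, were also at least 2-fold higher in the 2-week knockout. So were Churc1 (2.97), Tsc22d4 (2.17), the translation factor gene Eif3j1 (2.15) and the endothelin gene Edn1 (2.13), for which a single cell held 11.5% of the control UMIs. Defb6 had 393 CPM in the 2-week knockout and 173 CPM in control (2.27 (2.09 to 2.47)), though the ratio was only 1.43 at 3 weeks.

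On the lower side at 2 weeks 8 genes met the naming rule. Among them, the interferon-induced genes Ifi27l2a (324, 152 and 656 CPM in 2-week knockout, 3-week knockout and control) and Ifi202b (771, 575 and 1556 CPM) had ratios of 0.493 (0.464 to 0.525) and 0.495 (0.476 to 0.515) at 2 weeks. Bst2, a membrane protein that tethers viruses, had 21.4, 20.1 and 55.7 CPM in the same libraries (0.385 (0.303 to 0.485) at 2 weeks), a single cell holding 27.2% of its 3-week UMIs. These interferon-related genes were each below control in both knockout libraries. Timp3, an inhibitor of matrix metalloproteinases, had 187, 287 and 435 CPM in 2-week knockout, 3-week knockout and control (0.431 (0.398 to 0.466) at 2 weeks and 0.66 (0.617 to 0.706) at 3 weeks). Lars2, the mitochondrial leucyl-tRNA synthetase, had 352, 387 and 796 CPM (0.442 (0.417 to 0.468) at 2 weeks), and Gm42418 differed in the same direction in these cells, at 14113, 13299 and 26962 CPM in 2-week knockout, 3-week knockout and control. Eva1a (0.47) and Gpr161 (0.492), an orphan receptor that holds back Hedgehog signalling, were below 0.5 as well.

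At 3 weeks the lower side was longer and its ratios more extreme. Wdr89 had 528, 94.9 and 882 CPM in 2-week knockout, 3-week knockout and control junctional zone cells, a ratio of 0.107 (0.0977 to 0.118) at 3 weeks. Integrin genes Itga2, a collagen receptor subunit, and Itgb6, whose integrin activates TGF-beta, had 68.4, 42.8 and 125 CPM and 32.7, 18.5 and 54.2 CPM in 2-week knockout, 3-week knockout and control. Their ratios were 0.341 (0.291 to 0.399) and 0.342 (0.267 to 0.435) at 3 weeks, and 0.546 (0.475 to 0.626) and 0.603 (0.491 to 0.739) at 2 weeks, so the 2-week library lay between the 3-week library and control for both. The urokinase receptor gene Plaur (0.271), the mitochondrial cyclophilin gene Ppif (0.276), the histidine phosphatase gene Phpt1 (0.225) and the receptor gene Il15ra (0.34), which presents interleukin 15 to lymphocytes, were all below 0.5 at 3 weeks. Ftl1-ps1 (0.176) was as well, but its transcript shares at least 95% of 200 or more bases with 1 other annotated gene, so read assignment is uncertain.

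On the higher side at 3 weeks, Hes1 and Id1 were joined by Plp2, a 4-pass membrane protein, with 104, 157 and 52.5 CPM in 2-week knockout, 3-week knockout and control (3 (2.6 to 3.47) at 3 weeks), by Reep5 (2.32), which shapes the endoplasmic reticulum, by Hmgn2 (2.28), a nucleosome-binding protein, and by Sap18 (2.1). Eno1, the glycolytic enolase, had 22, 54.3 and 11 CPM in 2-week knockout, 3-week knockout and control (4.95 (3.66 to 6.81) at 3 weeks). Eno1, Plp2 and Hmgn2 each have 1 other annotated gene with a near-identical stretch, so their counts are uncertain. Ndufa4l2, a hypoxia-induced mitochondrial protein, had a ratio of 4.46 (3.38 to 5.98), with 19.7% of its control UMIs in a single cell. The phosphatase gene Plpp3 (2.07) and the mitotic kinase gene Wee1 (2.04) were just past 2-fold.

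**Figure D4:**
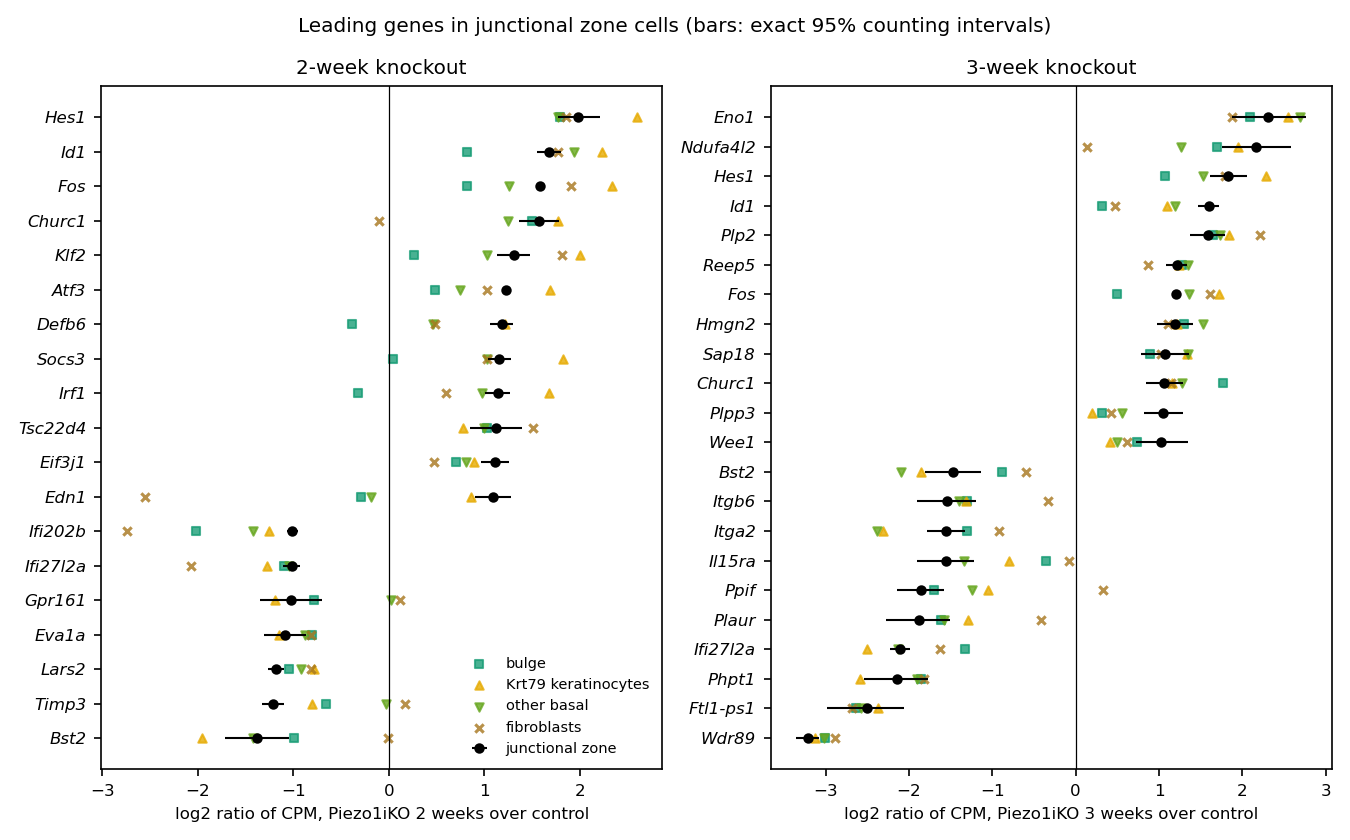
Log2 ratio of knockout over control CPM (x axis) for named genes (rows) at 2 weeks and at 3 weeks, each row with junctional zone cells and their 95% counting interval, and the same ratio in bulge, Krt79 and other basal keratinocytes and in fibroblasts as further markers. Most rows show the other classes on the same side as the junctional zone. Exceptions at 2 weeks include Edn1 and also Defb6, which was above control in Krt79 cells too but below it in bulge.

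Many of these genes differed in the same direction in other classes. Of the 12 genes named as higher at 2 weeks, 6 were at least 1.5-fold higher in all 3 other keratinocyte classes and 8 in fibroblasts, and of the 8 named as lower, 6 were at least 1.5-fold lower in all 3 other keratinocyte classes and 4 in fibroblasts. Of all genes ranked at 2 weeks, 1.2% were as much higher in all 3 other keratinocyte classes and 13% in fibroblasts, and 1.58% were as much lower in the 3 classes and 10.7% in fibroblasts. At 3 weeks these counts were 8 and 9 of 12 for the higher genes, against 1.65% and 9.45% of ranked genes, and 11 and 7 of 12 for the lower genes, against 4.12% and 7.46%. Fibroblasts numbered 92, 541 and 364 in the 2-week knockout, 3-week knockout and control, and K5-Cre-er is not active in them. Keratinocyte RNA was found with them: 40.2%, 71.5% and 39% of the fibroblasts of the 2-week knockout, 3-week knockout and control held a Krt10 UMI, and its part in their ratios was not tested. Hes1, Id1, Fos and Tsc22d4 at 2 weeks, and Wdr89, Itga2, Ifi27l2a and Eno1 at 3 weeks, were among those that passed 1.5-fold in the 3 other keratinocyte classes and in fibroblasts alike. Bst2 at 2 weeks, and Itgb6, Plaur and Ppif at 3 weeks, passed it in the 3 other keratinocyte classes but not in fibroblasts. Plpp3 at 3 weeks passed it in none of the other keratinocyte classes, and Defb6 and Edn1 at 2 weeks in 1 of them. For Defb6 this was the Krt79 class. Whether the size of these ratios differs between classes was not tested.

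Gene lists are described with the share of all ranked genes past 1.5-fold beside them, which was 2.91% higher and 2.88% lower at 2 weeks, and 4.22% higher and 10.3% lower at 3 weeks. Of 19 immediate early genes, 7 were at least 1.5-fold higher and none lower at each time (median log2 ratios 0.44 at 2 weeks and 0.38 at 3 weeks). Fos, Fosb, Atf3, Nr4a1 and Socs3 were among the 7 at both times. Of 9 genes of the BMP and TGF-beta list that were ranked, the Id genes stood out at 2 weeks: Id1, Id2 (1.62) and Id3 (1.85) were at least 1.5-fold higher, whereas at 3 weeks only Id1 was, and the antagonist Fst was lower. Fst had 2311, 1542 and 3294 CPM in 2-week knockout, 3-week knockout and control junctional zone cells, with ratios of 0.702 (0.685 to 0.719) at 2 weeks and 0.468 (0.456 to 0.481) at 3 weeks. In bulge, Krt79 and other basal cells Fst was below control in both knockout libraries as well.

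Upper follicle genes divided. Of 10 ranked, Lgr6 (1.74), Defb6 and Cd200 (2.05) were at least 1.5-fold higher at 2 weeks and none lower, and at 3 weeks Cd200 (1.85) was higher and Cldn4 (0.446), Plet1 (0.478) and Fst lower. Cd200, a surface glycoprotein that restrains leukocytes, had 71.8, 65 and 35 CPM in 2-week knockout, 3-week knockout and control, the control library lying lowest. Plet1 had 1831, 1245 and 2605 CPM in the same libraries, the control library lying highest, as it also did in bulge and Krt79 cells. The rule's own genes, given without a reading because the cells were chosen on them, had ratios at 2 and 3 weeks of 1.41 and 1.63 for Gata6, 1.13 and 1.13 for Lrig1, 0.848 and 0.652 for Tm4sf1, 0.927 and 0.564 for Igf2bp2, 0.954 and 0.956 for Adgrl2, and 1.14 and 0.653 for Pdk4.

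Some genes of the actin cytoskeleton were below control in both knockout libraries. Of 13 cytoskeletal genes and YAP targets ranked, 5 were at least 1.5-fold lower at 2 weeks and 4 at 3 weeks, and none higher (median log2 ratios -0.46 and -0.53). Actb, cytoplasmic beta actin, had 3331, 3446 and 5797 CPM in 2-week knockout, 3-week knockout and control, with ratios of 0.575 (0.563 to 0.586) and 0.595 (0.583 to 0.606) at 2 and 3 weeks. Myh9, a heavy chain of nonmuscle myosin, had 287, 329.9 and 568 CPM (0.505 (0.473 to 0.539) and 0.581 (0.546 to 0.617)). Tpm1, a tropomyosin, and Zyx, a focal adhesion protein, were lower in the same way, at 0.581 and 0.642 at 2 weeks and 0.616 and 0.646 at 3 weeks. The YAP targets Ccn1 (0.935 and 0.975 at 2 and 3 weeks) and Ccn2 (1.09 and 1.02) stayed near the control level. The log2 ratio of Actb in the other keratinocyte classes was -0.85, -0.64 and -0.97 in bulge, Krt79 and other basal cells at 2 weeks, against -0.23 in fibroblasts.

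Some adhesion genes were below control. Of 12 integrin and basement membrane genes ranked, 3 were at least 1.5-fold lower at 2 weeks and 4 at 3 weeks, and none higher (medians -0.26 and -0.45). At 3 weeks these were Itga2, Itgb6, Itgb1 (0.568) and the laminin gene Lama3 (0.568), while the hemidesmosomal genes Itgb4 (1.06) and Col17a1 (0.949) were near the control level. Of the junction genes, none of 14 passed 1.5-fold at 2 weeks (median -0.09), and 6 of 15 were lower at 3 weeks (median -0.38). Among the 6 were the claudin genes Cldn4 (0.446) and Cldn1 (0.628), the tight junction genes Ocln (0.647) and Tjp1 (0.662), and the E-cadherin gene Cdh1 (0.644). Desmosomal genes Dsp (0.919), Jup (0.976) and Pkp3 (0.984) lay near 1.

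Some chemokine genes were below control at both times. Of 9 ranked, 4 were at least 1.5-fold lower and none higher at 2 weeks (median -0.50) and at 3 weeks (median -0.31). Ccl2 had 152, 148 and 274 CPM in 2-week knockout, 3-week knockout and control, ratios of 0.554 (0.505 to 0.607) and 0.539 (0.492 to 0.59). Ccl20, which draws dendritic cells and Th17 cells, had 40.4, 21.5 and 78.3 CPM in the same libraries, but 23.7%, 24.5% and 33% of its UMIs came from 1 cell in the 2-week knockout, 3-week knockout and control. Tslp (0.562 and 0.624 at 2 and 3 weeks) had 48% of its control UMIs in 1 cell, and Cxcl1 was lower at 2 weeks (0.282) but less so at 3 weeks (0.809). Ccl27a and Cxcl12, like Ccl2 higher than in all 3 other classes, did not pass 1.5-fold at either time. Their ratios were 1.16 and 0.733 at 2 weeks and 1.35 and 0.992 at 3 weeks. Of 10 interferon-response genes ranked, Irf1 was higher and Bst2 and Ifi27l2a lower at 2 weeks, and Bst2, Ifi27l2a and Irf9 lower at 3 weeks, while B2m (0.996 and 0.936 at 2 and 3 weeks) stayed at the control level.

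Of 9 ErbB genes ranked, none passed 1.5-fold at 2 weeks and 4 were lower at 3 weeks, among them Errfi1 (547, 398 and 729 CPM in 2-week knockout, 3-week knockout and control) and the ligand gene Areg (1.36 and 0.531 at 2 and 3 weeks). Of 12 glycolysis and hypoxia genes ranked at 2 weeks, 1 was at least 1.5-fold higher and 1 lower (median log2 ratio 0.12). Of 13 ranked at 3 weeks, 3 were higher and 1 lower (median 0.18). Hk2 had 413, 252 and 223 CPM in 2-week knockout, 3-week knockout and control (1.85 at 2 weeks). Eno1, with its uncertain counts, Gapdh (1.61) and Pgam1 (1.52) passed 1.5-fold at 3 weeks. The hypoxia-induced gene Ndrg1 had 269, 199.5 and 417 CPM in the same libraries and was lower at both times. Of 10 stem cell regulators ranked, Lgr6 and Cd200 were higher at 2 weeks and Barx2 (1.5) and Cd200 at 3 weeks, none lower. Of 7 cation channel and calcium genes, none passed 1.5-fold at 2 weeks, and Atp2a2 (0.636), the calcium pump of the endoplasmic reticulum, was lower at 3 weeks. Of 6 cell cycle genes ranked, Top2a was lower at 2 weeks and Ccnd1 higher at 3 weeks. Gas1, the one Hedgehog gene ranked, was higher at both times (1.52 and 1.85 at 2 and 3 weeks). The ranked genes of the Wnt, retinoid, keratin, sebaceous, Notch, clock, PPAR and p53 lists numbered 4 to 7 each, with at most 2 past 1.5-fold in a direction.

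**Figure D5:**
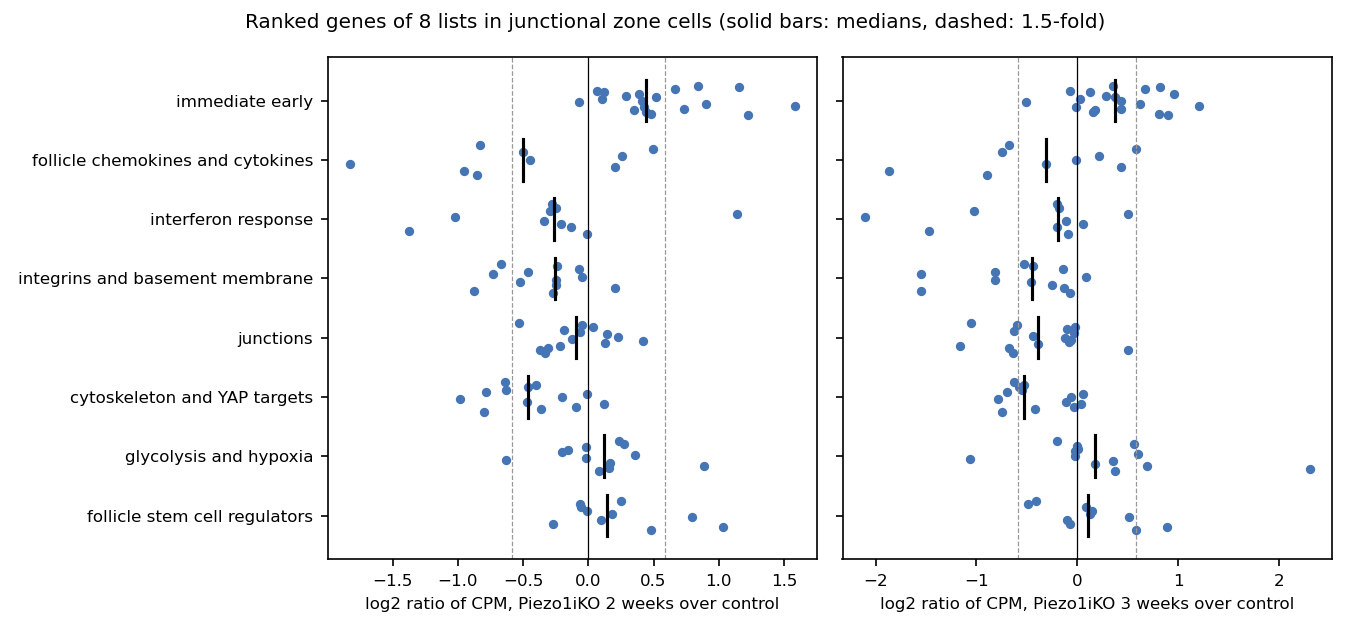
Log2 ratio of knockout over control CPM in junctional zone cells (x axis) for the ranked genes of 8 lists at 2 weeks and at 3 weeks; each point is 1 gene, bars are list medians and dashed lines mark 1.5-fold. The median of the immediate early genes lies above 0 (0.44 and 0.38) and that of the cytoskeletal genes below it (-0.46 and -0.53).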

How the data were processed

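Each of the 3 libraries (10x 3' single-cell RNA; back skin was taken apart with collagenase I followed by trypsin, per the labels) came as a deposited matrix of raw UMI counts per gene and barcode, over 32285 genes. The counts were made by the authors with Cell Ranger 6.1.2 and mm10, per the submitters' processing notes. Neither the annotation release nor whether intronic reads were counted is stated. The rule was applied to each barcode as stated, and bulge, Krt79 and other basal classes were gated by the same genes. The members and gene lists were chosen with earlier results of these data known.

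UMIs were summed per library and class and tested in edgeR 4.0.16 (R 4.3.3): TMM, filterByExpr, quasi-likelihood test, library as block, 12 sums with 6 residual degrees of freedom and a common dispersion of 0.0130, Benjamini-Hochberg adjustment. The step was tested on simulated counts. The 19 genes of the rule were left out of all counts. Knockout and control were compared by CPM with no test. Named genes had adjusted p below 0.05, 1.5-fold or more and 1 direction in every library against all 3 classes and 50 CPM (up to 15 a side), or a knockout ratio of at least 2 among ranked genes with no cell over 10% of the UMIs in the higher library (up to 12 a side). Ribosomal, mitochondrial, haemoglobin and sex-linked genes and unnamed models were left out of the names. List members are named besides. A few genes that met these criteria are not reported here. Near-identical copies were looked for among 61 of the named genes.

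Alternatives were DESeq2 1.42.0 and its size factors, other filters, no block, each library left out, other marker, keratin, mitochondrial and gene limits, Scrublet doublets left out (scanpy 1.11.5), and thinning to 5000 or 3000 UMIs. Leaving out cells with 3 or more UMIs of another type's markers, and the share among keratinocytes other than bulge, were added after seeing the data. Single samples carry 95% exact intervals for counting error only.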

Additional observations from a re-analysis of the deposited data

How the results depend on the processing

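The share of junctional zone cells stayed below control in both knockout libraries under every alternative run. It moved little with under 10% mitochondrial counts (5.80%, 6.82% and 12.5% in the 2-week knockout, 3-week knockout and control), with at least 1000 genes (5.93%, 7.00% and 12.5%) and without Scrublet doublets (5.84%, 6.80% and 12.4%), and more with the others. In the same order it was 3.63%, 3.42% and 7.08% at 5000 UMIs per cell, 2.08%, 1.81% and 3.10% at 3000 UMIs, 10.8%, 13.1% and 20.3% with at least 3 markers, 2.48%, 2.68% and 4.79% with at least 5, 2.66%, 4.52% and 5.72% with keratin at 1% or more, 4.49%, 5.39% and 9.21% with 4 of 5 markers and no Pdk4, and 9.85%, 8.31% and 16.3% among keratinocytes other than bulge (5.83%, 3.88% and 8.82% of these when thinned). The 2-week ratio to control moved to 0.671 at 3000 UMIs, 0.606 among keratinocytes other than bulge and 0.661 with both thinning to 5000 UMIs and that denominator. The 3-week ratio moved to 0.644 with at least 3 markers, 0.790 at 1% keratin and 0.440 with the thinned denominator other than bulge. The cause of these moves was not tested.

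No paired analysis of knockout against control was possible because each group is 1 library. In the class tests, dropping the library as a block left 1542 higher and 1806 lower genes against bulge, 286 and 517 against Krt79 cells, and 898 and 842 against other basal cells. Leaving out 1 library in turn gave 1752 to 2313 higher and 1801 to 2245 lower genes against bulge, 404 to 687 and 530 to 990 against Krt79 cells, and 1025 to 1259 and 1146 to 1281 against other basal cells. These fits have fewer samples. Thinning to 5000 UMIs gave 726 higher and 852 lower against Krt79 cells and 1219 higher against other basal cells. Of the 21 named genes, none turned direction, 6 lost a call when a library was left out, 9 without the block, and Diaph3, Hmgcs1, Ntrk2 and Pclaf under other settings.

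Counts of genes 2-fold apart moved with the ranking minimum and the cells chosen. At 2 weeks 8 were lower with 100 UMIs and 100 CPM, 517 were higher and 418 lower with 10 UMIs and no CPM minimum, 34 lower with at least 5 markers, and 36 higher after thinning to 5000 UMIs. At 3 weeks 25 were higher and 43 lower with 100 UMIs and 100 CPM, 755 higher and 502 lower with 10 UMIs, and 110 lower after thinning. No named knockout ratio turned direction. Precision is limited by 1 library a group and, for low genes such as Piezo1, by counts.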

Other observations

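Genes of antigen presentation by MHC class II were found at low levels in the junctional zone class, although the rule required Ptprc at 0. Cd74, the invariant chain that escorts class II molecules, had 32.9, 52.7 and 45.4 CPM in 2-week knockout, 3-week knockout and control junctional zone cells, against 11.8, 38.6 and 6.84 CPM in bulge cells and 8.62, 23 and 9.44 CPM in other basal cells of the same libraries. A Cd74 UMI was present in 11.6%, 19.7% and 18.4% of the 2-week knockout, 3-week knockout and control junctional zone cells, and in 2.32%, 9.93% and 5.97% of bulge cells. Cd74 was higher than in bulge (log2 fold change 1.34 ± 0.30, adjusted p = 0.00396 in edgeR's quasi-likelihood test) and than in other basal cells (1.72 ± 0.30, adjusted p = 0.00146), but did not pass the test against Krt79 cells (0.60 ± 0.31, adjusted p = 0.204). H2-Ab1, a class II chain, had 11.9, 18.0 and 22.4 CPM in the junctional zone cells of the 2-week knockout, 3-week knockout and control, against 6.65, 18.5 and 5.59 CPM in bulge cells. In Krt79 cells of the same libraries H2-Ab1 had 7.38, 15.5 and 16.8 CPM, and Cd74 had 16.8, 43.2 and 30.9 CPM. The macrophage gene Lyz2 was at 1, 3 and 2 UMIs in the 2-week knockout, 3-week knockout and control junctional zone cells. The T cell gene Cd3e had 17, 9 and 28 UMIs in the 2-week knockout, 3-week knockout and control junctional zone cells, or 3.54, 1.76 and 6.02 CPM, against 0.624, 0.36 and 0.746 CPM in bulge cells. It was higher than in bulge (log2 fold change 2.73 ± 0.44, adjusted p = 0.000521) and than in other basal cells (1.54 ± 0.38, adjusted p = 0.0107) in the same test. Against Krt79 cells, which had 5.94, 2.16 and 3.18 CPM in the same libraries, Cd3e did not pass the test. Its UMIs came from 11, 7 and 9 junctional zone cells of the 2-week knockout, 3-week knockout and control. The part of RNA from other cells in these values was not tested.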
